A study of Mus musculus with 38 samples.

Results

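The comparison set ribosome-bound RNA of oligodendrocyte progenitor cells against that of mature oligodendrocytes, both from the cortex of adult mice. It used the 3 arrays labelled Cortical Oligodendrocyte Progenitor Cells and the 3 labelled Cortical Mature Oligodendrocytes, 6 of the 38 arrays in the series, with all measured genes. The progenitor arrays carry the titles Pdgfra_Jd340_IP and the mature arrays the titles Cnp1_JD368_IP, so each stage came from 1 reporter line, and line and stage cannot be told apart. Both groups shared a mixed strain background of c57/bl6j, FVB and Swiss-Webster, were wildtype with no tumour, and came from pools of at least 2 mice. An age in weeks is not given in the sources used here. Nothing in the labels says that the pools of a group were made from separate litters or on separate days, so p-values measure the spread between these arrays, which may be partly technical. The other arrays held neurons, astrocytes, cortical Olig2 cells, total RNA of cortex and samples of mouse glioma. They entered the estimate of the spread, and the cortical ones are used below to place the genes that differed.

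Oligodendrocytes make the myelin that insulates axons of the central nervous system. They arise from progenitor cells that keep dividing in the adult cortex, carry the receptor for platelet-derived growth factor (Pdgfra) and the proteoglycan NG2 (gene Cspg4), and receive synaptic input from neurons. A progenitor that differentiates leaves the cell cycle, passes through a short committed stage marked by the receptor Gpr17, and then makes myelin proteins, galactolipids and cholesterol in large amounts. In translating ribosome affinity purification (TRAP), a tagged ribosomal protein is expressed from the regulatory sequences of a gene of the chosen cell type, and RNA is recovered from the tagged ribosomes without sorting the cells. The measure is therefore bound RNA of a tissue extract, in which fewer cells of a type and less bound RNA per cell cannot be told apart. Expression of Cnp begins before myelin is mature and Pdgfra is also active in cells around vessels, so a reporter may mark cells beyond the stage it is named for.

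The 3 genes that mark the stages went with the labels. Levels are log2 array signals after quantile normalization, and a level under log2 50 (5.64) is called dim. Pdgfra was at 10.32, 10.33 and 10.40 in the 3 progenitor arrays and at 3.38, 3.38 and 3.39 in the 3 mature oligodendrocyte arrays. The groups did not overlap and the mature arrays were all dim, so the difference was at least 26.03-fold (log2 difference 6.96 ± 0.499 SE, adjusted p = 5.66e-13). Gpr17, the receptor of committed precursors, was at 13.93, 14.16 and 14.06 in the 3 progenitor arrays and at 7.29, 7.29 and 7.74 in the 3 mature oligodendrocyte arrays. Here too the groups did not overlap, but the mature arrays were above the dim limit, and the difference was 97.6-fold (log2 difference 6.61 ± 0.45 SE, adjusted p = 1.83e-13). Mobp, a protein of compact myelin, was at 6.57, 6.49 and 6.57 in the 3 progenitor arrays and at 11.32, 11.35 and 11.29 in the 3 mature oligodendrocyte arrays, the opposite order without overlap. It was higher in mature oligodendrocytes by 27.4-fold (log2 difference -4.78 ± 0.57 SE, adjusted p = 2.72e-08). Cnp, whose regulatory sequences name the mature line, was at 11.13, 11.15 and 12.01 in the 3 progenitor arrays and at 14.25, 14.19 and 14.23 in the 3 mature oligodendrocyte arrays, higher in mature oligodendrocytes by 6.95-fold (adjusted p = 3.33e-06). Its message was thus well above the dim limit in the progenitor arrays as well, and highest there in replicate 3.

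Promoters of 2 genes from each side are printed, chosen with their values known: Pdgfra, the gene of the progenitor line, Rlbp1, another gene of the progenitor surface list, Mobp, the marker of the mature stage, and Opalin, another gene of the myelin list. The sequences are from RefSeq on GRCm38.p6 and run 5′ to 3′ on the strand of the gene, from 250 bases before the start of the transcript to 50 after it. Capitals mark the letters ACAAAG or ACAATG, on either strand, a short form of the sequence that SOX factors such as Sox10 recognise. The windows lie at chr5:75152001-75152300 (plus strand, Pdgfra), chr7:79386978-79387277 (minus, Rlbp1), chr9:120149492-120149791 (plus, Mobp) and chr19:41077064-41077363 (minus, Opalin).
Pdgfra: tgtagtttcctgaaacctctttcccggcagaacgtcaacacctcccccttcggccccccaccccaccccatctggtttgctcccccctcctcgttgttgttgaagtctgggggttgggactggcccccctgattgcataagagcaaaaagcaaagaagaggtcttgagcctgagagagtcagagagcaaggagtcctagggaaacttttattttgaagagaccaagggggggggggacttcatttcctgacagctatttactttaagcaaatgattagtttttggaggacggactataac
Rlbp1: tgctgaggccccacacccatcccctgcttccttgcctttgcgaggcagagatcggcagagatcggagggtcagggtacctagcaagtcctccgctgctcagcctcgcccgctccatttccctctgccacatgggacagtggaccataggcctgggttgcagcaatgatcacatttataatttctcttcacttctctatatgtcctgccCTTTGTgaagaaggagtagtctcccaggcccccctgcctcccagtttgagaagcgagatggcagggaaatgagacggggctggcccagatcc
Mobp: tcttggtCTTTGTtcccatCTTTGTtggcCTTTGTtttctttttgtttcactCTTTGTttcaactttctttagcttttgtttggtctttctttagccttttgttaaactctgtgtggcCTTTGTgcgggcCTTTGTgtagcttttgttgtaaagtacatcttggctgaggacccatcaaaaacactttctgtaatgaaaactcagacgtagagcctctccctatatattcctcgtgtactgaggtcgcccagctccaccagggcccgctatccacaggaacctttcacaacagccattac
Opalin: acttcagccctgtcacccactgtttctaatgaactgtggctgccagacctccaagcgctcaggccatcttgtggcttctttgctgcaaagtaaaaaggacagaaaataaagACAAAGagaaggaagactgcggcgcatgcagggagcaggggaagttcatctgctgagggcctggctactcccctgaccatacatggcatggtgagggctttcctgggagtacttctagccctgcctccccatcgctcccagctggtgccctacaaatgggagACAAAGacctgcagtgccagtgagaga

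The letters were found 6 times in the Mobp window, 2 times in that of Opalin, 1 time in that of Rlbp1 and 0 times in that of Pdgfra. Of the 32851 mouse promoters in the table, Mobp was the 1 with 6 or more matches, and 5.59% had at least 2. A match is a description of letters and shows no binding.  A promoter was listed for 1078 of the 1341 genes higher in progenitors and 1191 of the 1427 higher in mature oligodendrocytes. At least 1 SOX match stood in 20.6% of the promoters of the former, 21.4% of the latter, 19.7% of those of all genes tested and 28.6% of all in the table. The E-box CAGCTG, which reads the same on both strands, stood in 15.5%, 16.6%, 15.4% and 16.3% of the same 4 sets. The GC box GGGCGG, on either strand, stood in 64.8%, 62.9%, 62.6% and 35.7%. Both sides of the comparison were therefore close to the tested genes, which as a group had more GC boxes than the table.

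Of 9799 genes tested, 2768 differed (28.2% of those tested), with a limma adjusted p under 0.05 and a difference of at least 2-fold. For this call a mean under the dim limit was first raised to it, and where 1 side was dim the fold is written as at least N-fold. The log2 difference printed beside a fold is the fitted one, before raising, and has no firm size where a side was dim. Progenitors were higher for 1341 genes (13.7%) and mature oligodendrocytes for 1427 (14.6%). At least 4-fold separated the stages for 509 genes higher in progenitors and 446 higher in mature oligodendrocytes, at least 16-fold for 90 and 42, and at least 64-fold for 9 and 0. Whether these counts differ was not tested. The lower stage was dim for 422 of the genes higher in progenitors and 330 of those higher in mature oligodendrocytes. The split between directions rests on the scaling. With the deposited values 27.9% of 3310 calls were higher in progenitors, with each array centred on its median 20.2% of 4083, and with arrays scaled to the spike-in controls 24.8% of 3525, against 48.4% in the main scaling. These scalings moved the median of all genes tested from -0.015 to -0.38, -0.65 and -0.49. They turned the direction of 0 calls. Levels are therefore read relative to the other genes of the array, and a list whose direction depends on the scaling is named as such where it is described. Medians of lists are over tested members with dim means raised, and a list with no median given had a median of 0. Counts of a list are to be read beside the 13.7% and 14.6% of all genes tested.

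**Figure D1:**
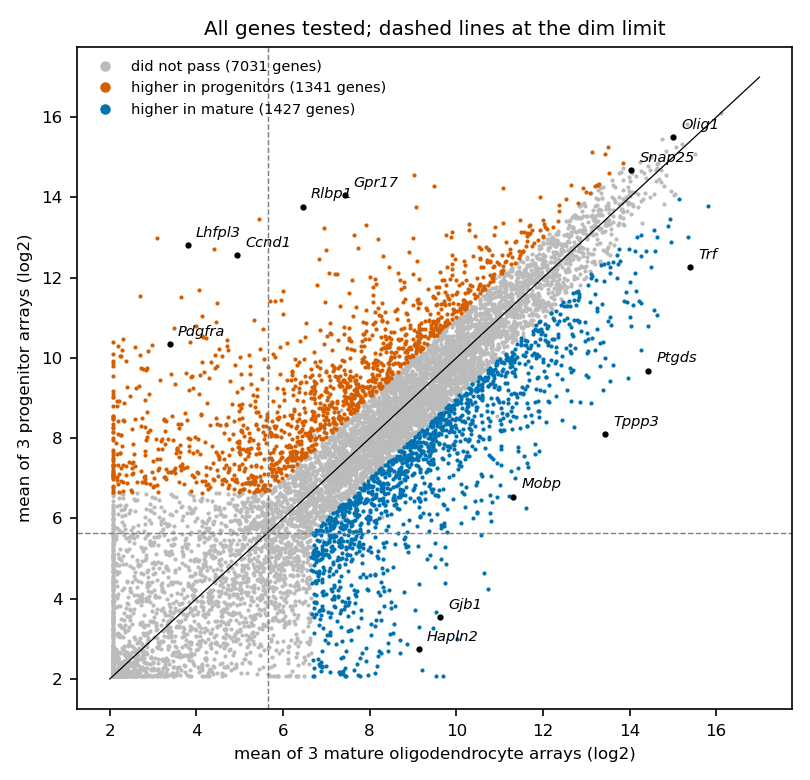
All genes tested, with the mean log2 level in progenitors against that in mature oligodendrocytes (n = 3 arrays each), progenitors on the vertical axis. Genes that passed are coloured by direction, 1341 higher in progenitors and 1427 higher in mature oligodendrocytes, and the dim limit of 5.64 is drawn on both axes.

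The arrays of a stage were close to each other. Pearson's r across the 9799 tested genes was 0.99 to 0.997 between progenitor arrays, 0.994 to 0.999 between mature arrays and 0.826 to 0.842 between the stages. The median SD of a gene over 3 arrays was 0.137 in progenitors and 0.103 in mature oligodendrocytes. This spread may be too small, since 14.4% and 11.8% of genes above the dim limit had the same deposited value on all 3 arrays of the stage, and each stage had its own lowest deposited value. The stages differed in the 3′ to 5′ signal of control genes, a measure commonly read as RNA quality. For the actin control, the log2 signal of the 3′ probe set minus that of the 5′ probe set was 6.51 ± 0.43 (SD, n = 3) in progenitors and 3.64 ± 0.090 in mature oligodendrocytes. For Gapdh it was 6.35 ± 0.38 and 3.54 ± 0.24, and the stages overlapped in neither control. The 3 cortical Olig2 arrays were at 2.76 ± 0.21 and 2.29 ± 0.32. The part of this gap in the differences described below was not tested.

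**Figure D2:**
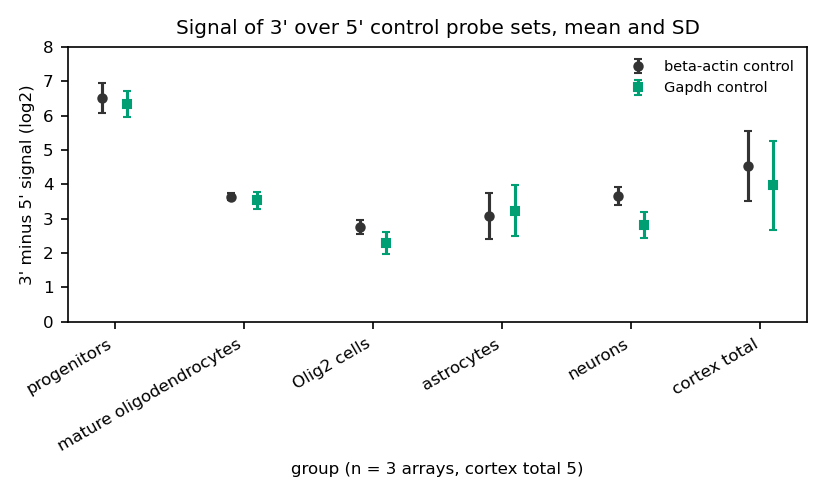
Log2 signal of the 3′ probe set minus the 5′ probe set of the actin and Gapdh control genes, as mean and SD (n = 3 arrays, and 5 for cortex total RNA). The progenitor arrays lie above the mature arrays in both controls, from 6.01 to 6.78 against 3.55 to 3.73 for actin.

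Genes of the progenitor surface and its matrix were mostly higher in progenitors. Of 27 measured, 25 were tested, and 18 of these were higher in progenitors and 0 in mature oligodendrocytes, with a median difference of 2.70 after dim means were raised, against 0 over all genes tested. Under the other scalings, with 25 to 26 tested, these counts were 16 and 1, with a median of 2.41 to 2.70. The list also holds genes that are not of the surface or matrix, such as Rlbp1, a retinaldehyde-binding protein. Rlbp1 was at 13.56, 13.74 and 14.01 in the 3 progenitor arrays and at 6.21, 6.21 and 6.94 in the 3 mature oligodendrocyte arrays, 159.6-fold apart without overlap. Cspg4, the NG2 proteoglycan, was at 9.42, 9.45 and 9.83 in the 3 progenitor arrays and at 4.09, 4.09 and 4.09 in the 3 mature oligodendrocyte arrays. The mature arrays were dim and the groups apart, with a difference of at least 15.2-fold (log2 difference 5.48 ± 0.57 SE, adjusted p = 1.73e-09). Emid1, an extracellular matrix gene, was at 10.57, 10.80 and 11.01 in the 3 progenitor arrays and at 3.99, 3.98 and 3.99 in the 3 mature oligodendrocyte arrays, again with the mature arrays dim. It was higher by at least 35.5-fold (log2 difference 6.80 ± 0.40 SE, adjusted p = 7.73e-15). Timp4, an inhibitor of matrix metalloproteinases, was at 11.85, 11.90 and 11.74 in the 3 progenitor arrays and at 6.78, 6.79 and 6.76 in the 3 mature oligodendrocyte arrays, so both stages were above the dim limit. The difference was 33.1-fold, and its level in astrocytes was 13.70 ± 0.15, above both stages. Among the chondroitin sulphate proteoglycans and their partners, the difference was 32.1-fold for Cspg5, 18.7-fold for brevican (Bcan), 2.24-fold for neurocan (Ncan) and at least 18.7-fold for the matrilin Matn4. The complement-related secreted proteins C1ql1, C1ql2 and C1ql3 were higher by at least 3.24-fold, at least 6.5-fold and 2.58-fold. Chst11, which adds sulphate to chondroitin chains, was higher by at least 3.94-fold. Neurocan and C1ql3 did not pass under the 3 other scalings. Of the 25 genes, 4 were dim in both stages, versican (Vcan) and tenascin C (Tnc) among them.

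Genes of the committed stage were divided. Of 19 tested, 7 were higher in progenitors and 1 was higher in mature oligodendrocytes (median difference 0.67, and under the other scalings 6 and 2 to 4 in the same order with a median of 0). Besides Gpr17, the kinase gene Fyn, which acts in process outgrowth and myelin formation, was at 13.28, 13.22 and 13.07 in the 3 progenitor arrays and at 10.32, 10.42 and 10.11 in the 3 mature oligodendrocyte arrays. The groups did not overlap, and the difference was 7.5-fold (log2 difference 2.91 ± 0.19 SE, adjusted p = 6.21e-14). The membrane protein Mpzl1 was higher by 8.9-fold and the small GTPase Rras2 by 5.88-fold. The exception was Kif21a, a kinesin, higher in mature oligodendrocytes by at least 6.46-fold. Genes in common use for newly formed oligodendrocytes did not pass, among them Enpp6 (log2 difference -0.41, 95% interval -1.13 to 0.30, adjusted p = 0.317) and Bcas1 (log2 difference 0.28, 95% interval -0.10 to 0.66, adjusted p = 0.192), and Tcf7l2 was dim in both stages. Enpp6 was at 7.35, 7.41 and 7.26 in the 3 progenitor arrays and at 7.73, 7.92 and 7.61 in the 3 mature oligodendrocyte arrays.

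**Figure D3:**
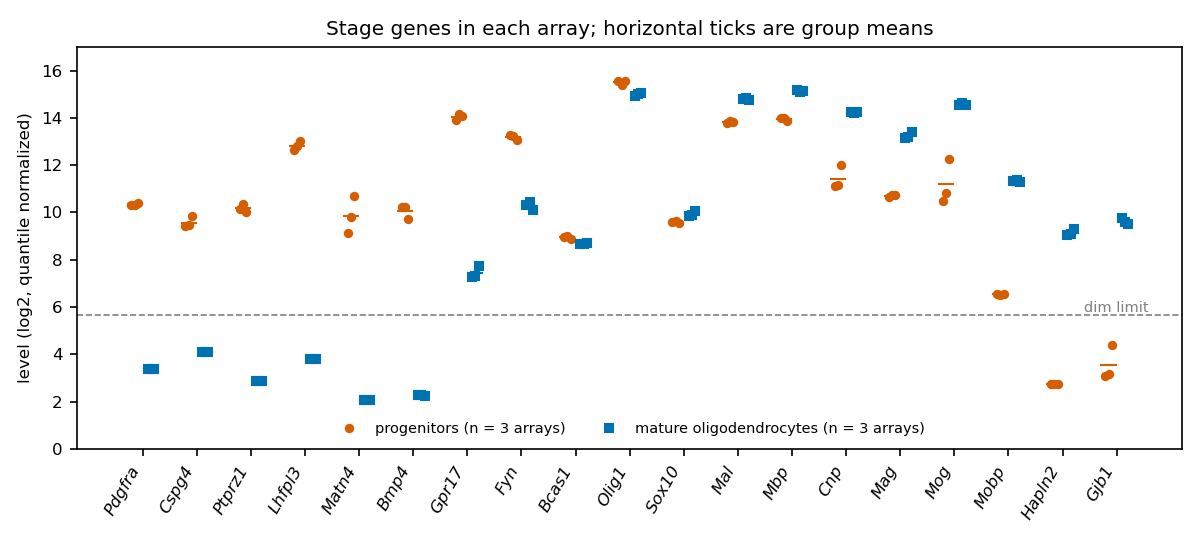
Log2 levels of genes of the 2 stages on each of the 6 arrays, with 1 point per array; progenitors and mature oligodendrocytes are coloured apart and the dashed line is the dim limit of 5.64. The progenitor genes lie above the mature arrays and the myelin genes below them, while Bcas1, Olig1 and Sox10 lie close together in both stages. Short horizontal lines are group means; Mbp, for one, is at 13.96 ± 0.068 in progenitors and 15.14 ± 0.025 in mature oligodendrocytes.

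Genes of myelin and of the oligodendrocyte membrane were higher in mature oligodendrocytes in 29 of 33 tested members and higher in progenitors in 0 (median difference -2.47). The list also holds some genes that are not myelin proteins, such as the creatine synthesis enzyme Gamt and the adhesion gene Mcam, which were higher by 18.6-fold and at least 17.1-fold. Mog, a glycoprotein of the outer myelin surface, was at 10.48, 10.83 and 12.28 in the 3 progenitor arrays and at 14.55, 14.62 and 14.53 in the 3 mature oligodendrocyte arrays. The progenitor arrays were lower without overlap but spread widely, with replicate 3 highest, and the difference was 10.3-fold (log2 difference -3.37 ± 0.82 SE, adjusted p = 0.000755). Mbp, the basic protein that compacts myelin, was at 13.98, 14.01 and 13.88 in the 3 progenitor arrays and at 15.17, 15.12 and 15.13 in the 3 mature oligodendrocyte arrays. Its groups did not overlap, but the difference was 2.27-fold, small beside the fold of Mobp (log2 difference -1.18 ± 0.25 SE, adjusted p = 0.000151). The gap junction genes Gjb1 and Gjc3 were higher in mature oligodendrocytes by at least 15.8-fold and 8.64-fold. Hapln2, a link protein at nodes of Ranvier, was higher by at least 11.2-fold, and the myelin surface proteins Mag and Opalin by 5.81-fold and 5.55-fold. The tight junction gene Cldn11 was higher by 4.28-fold and the cytoskeletal protein ermin (Ermn) by 7.47-fold. Mal, a proteolipid of myelin, was at 13.79, 13.86 and 13.84 in the 3 progenitor arrays and at 14.80, 14.86 and 14.76 in the 3 mature oligodendrocyte arrays and did not pass, at log2 difference -0.97, 95% interval -2.06 to 0.11, adjusted p = 0.113, although its groups did not overlap and it passed under the 3 other scalings. Gpm6b and Cadm4 did not pass either, with log2 differences of -0.39 and 0.056. Messages of myelin were thus present in the progenitor arrays, where 7 of the 33 genes were dim, against 0 in mature oligodendrocytes.

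Enzymes of lipid and intermediary metabolism went the same way: 27 of 36 tested were higher in mature oligodendrocytes and 0 in progenitors (median difference -2.11). Ptgds, which makes prostaglandin D2 and is a known product of oligodendrocytes, was at 9.55, 9.64 and 9.85 in the 3 progenitor arrays and at 14.48, 14.53 and 14.28 in the 3 mature oligodendrocyte arrays. The groups lay apart by 26.8-fold (log2 difference -4.75 ± 0.62 SE, adjusted p = 1.26e-07). For sphingolipid and fatty acid synthesis, the ceramide synthase Cers2 was higher in mature oligodendrocytes by 7.26-fold, the elongases Elovl1 and Elovl7 by 4.42-fold and 5.53-fold, and the galactosyltransferase Ugt8a by 2.44-fold. Fa2h, which hydroxylates the fatty acids of myelin galactolipids, did not pass (log2 difference -1.04, 95% interval -2.04 to -0.032, adjusted p = 0.0694), nor did the sulfatide enzyme Gal3st1 (log2 difference -0.76, 95% interval -1.54 to 0.022, adjusted p = 0.087). Under each of the 3 other scalings both passed as higher in mature oligodendrocytes. Aspa, which frees acetate from N-acetylaspartate, was higher by 9.35-fold, and the carbonic anhydrases Car2 and Car14 by 4.19-fold and 19.04-fold. Phgdh, the first enzyme of serine synthesis, was higher by 13.1-fold, and the lipocalin Apod by at least 16.02-fold.

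Cholesterol synthesis genes were higher in mature oligodendrocytes in 9 of 19 tested and in progenitors in 0 (median difference -0.38, and under the other scalings 11 and 0 in the same order with a median of -1.08 to -1.35). The regulator Srebf1 was at 7.83, 7.95 and 6.94 in the 3 progenitor arrays and at 10.59, 10.79 and 10.85 in the 3 mature oligodendrocyte arrays, apart by 8.996-fold (log2 difference -3.17 ± 0.46 SE, adjusted p = 6.65e-07). The later steps Msmo1, Ebp and Sc5d were higher by 4.83-fold, 4.56-fold and 4.53-fold. Srebf2, the other regulator, did not pass (log2 difference 0.54, 95% interval 0.057 to 1.03, adjusted p = 0.0491), nor did squalene epoxidase (Sqle; log2 difference -0.37, 95% interval -0.96 to 0.22, adjusted p = 0.275), which passed as higher in mature oligodendrocytes under the 3 other scalings. In glycolysis and lactate transport, 8 of 20 were higher in mature oligodendrocytes and 0 in progenitors (median difference -0.86, and under the other scalings 13 to 14 and 0 in the same order with a median of -1.36 to -1.63). Slc16a1, the monocarboxylate carrier MCT1 through which lactate leaves oligodendrocytes, was at 5.71, 5.72 and 5.89 in the 3 progenitor arrays and at 9.62, 9.62 and 9.70 in the 3 mature oligodendrocyte arrays. The groups did not overlap, and the difference was 14.7-fold (log2 difference -3.87 ± 0.17 SE, adjusted p = 6.37e-18). The glucose carrier Slc2a1 and hexokinase Hk1 were higher by 6.53-fold and at least 5.13-fold. Enzymes of the lower part of the pathway, such as Pkm (log2 difference 0.35, 95% interval -0.17 to 0.88, adjusted p = 0.24), did not pass. In iron handling 3 of 10 were higher in mature oligodendrocytes (median difference -0.28, and 5 of 10 with a median of -0.59 to -0.73 under the other scalings): transferrin (Trf) by 8.77-fold, the ferritin heavy chain Fth1 by 5.77-fold and the importer Slc11a2 by at least 2.94-fold. Peroxisome genes were higher in mature oligodendrocytes in 5 of 28 (17.9%) and in progenitors in 2 (7.1%), against 14.6% and 13.7% of all genes tested. The median difference was -0.12. Under the 3 other scalings, with a median of -0.79 to -1.06, these counts were 11 to 15 and 0. Pex5l, a relative of the peroxisomal import receptor that acts on ion channels, was higher in mature oligodendrocytes by 21.2-fold.

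Transcription factors of the progenitor stage passed in 12 of 33 tested cases as higher in progenitors and in 2 as higher in mature oligodendrocytes (median difference 0.79, and under the other scalings 11 and 3 in the same order with a median of 0.024 to 0.27). Sox6, a SoxD factor that holds back myelin genes, was at 9.69, 9.73 and 9.86 in the 3 progenitor arrays and at 2.87, 2.87 and 2.84 in the 3 mature oligodendrocyte arrays. The mature arrays were lower without overlap, and the difference was at least 17.3-fold (log2 difference 6.90 ± 0.48 SE, adjusted p = 2.47e-13). Its relative Sox5 was higher by at least 4.24-fold and the LIM homeobox gene Lhx2 by 8.31-fold. Etv1, an ETS factor that is often counted with progenitors, was higher in mature oligodendrocytes by at least 11.05-fold, at 5.30, 5.30 and 5.30 in the 3 progenitor arrays and at 9.19, 9.48 and 8.66 in the 3 mature oligodendrocyte arrays. Foxo1 was higher there by 3.85-fold. None of the 4 Id genes, inhibitors of bHLH factors, passed. Id1 was dim in both stages, Id2 (log2 difference 0.83, 95% interval 0.33 to 1.32, adjusted p = 0.00408) and Id3 (log2 difference 0.78, 95% interval 0.21 to 1.36, adjusted p = 0.0176) were under 2-fold, and Id4 missed both criteria (log2 difference 0.85, 95% interval -0.19 to 1.89, adjusted p = 0.15).

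Among factors of the mature stage, 9 of 18 were higher in mature oligodendrocytes and 2 in progenitors (median difference -1.07, and under the other scalings 11 to 12 and 2 in the same order with a median of -1.31 to -1.66). Nkx6-2, a homeobox factor of myelinating cells, was at 7.76, 7.52 and 8.27 in the 3 progenitor arrays and at 11.81, 11.85 and 11.79 in the 3 mature oligodendrocyte arrays. The stages lay apart by 15.6-fold (log2 difference -3.97 ± 0.41 SE, adjusted p = 1.51e-09). Myrf, the membrane-bound activator of myelin genes, was higher by 3.25-fold and the zinc finger factor St18 by 7.17-fold. The members higher in progenitors were the retinoid receptor Rxrg (at least 4.65-fold) and Etv6 (at least 7.27-fold). Of 6 factors used at both stages, 2 (33.3%) were higher in progenitors and 1 (16.7%) in mature oligodendrocytes, against 13.7% and 14.6% of all genes tested. Under the other scalings these counts were 0 and 1 to 2. Olig2 was at 12.24, 12.07 and 12.57 in the 3 progenitor arrays and at 10.90, 10.97 and 11.34 in the 3 mature oligodendrocyte arrays, higher in progenitors by 2.33-fold (log2 difference 1.22 ± 0.40 SE, adjusted p = 0.00906), and did not pass under any of the 3 other scalings. Nkx2-2 was higher by 2.72-fold and lost its call under other scalings too. Sox10 (log2 difference -0.35, 95% interval -1.02 to 0.33, adjusted p = 0.382), Sox8 (log2 difference 0.28, 95% interval -0.79 to 1.36, adjusted p = 0.674) and Olig1 (log2 difference 0.502, 95% interval 0.20 to 0.80, adjusted p = 0.00415) did not pass. Zfp536, a zinc finger repressor, was higher in mature oligodendrocytes by 5.9-fold. The median of this list of 6 was 0.39, and it changed sign under all 3 other scalings.

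Of 38 chromatin regulators, 6 (15.8%) were higher in progenitors and 5 (13.2%) in mature oligodendrocytes, close to the 13.7% and 14.6% of all genes tested. Under the other scalings these counts were 2 and 5 to 8, and the median (0.28) changed sign in 2 of the 3. The catalytic subunits of Polycomb repressive complex PRC2 went opposite ways. Ezh2, the form of dividing cells, was at 9.65, 9.69 and 9.88 in the 3 progenitor arrays and at 7.72, 7.03 and 7.07 in the 3 mature oligodendrocyte arrays. Progenitors were higher by 5.53-fold (log2 difference 2.47 ± 0.45 SE, adjusted p = 2.77e-05). Ezh1, the form of cells that have left the cycle, was at 4.29, 4.31 and 4.30 in the 3 progenitor arrays and at 8.30, 8.30 and 8.31 in the 3 mature oligodendrocyte arrays. It was higher in mature oligodendrocytes by at least 6.32-fold (log2 difference -3.9996 ± 0.18 SE, adjusted p = 7.23e-18), while the partners Eed and Suz12 did not pass, with log2 differences of 0.63 and 0.018. The deacetylase Hdac11 was higher in mature oligodendrocytes by 3.39-fold, and the nucleosome-binding protein Hmgn1 was higher in progenitors by 4.01-fold.

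Of 38 mitosis genes tested, 17 were higher in progenitors and 1 in mature oligodendrocytes (median difference 0.67, and under the other scalings 15 and 1 in the same order with a median of 0.16 to 0.33). Pbk, a mitotic kinase, was at 10.57, 10.15 and 10.21 in the 3 progenitor arrays and at 2.98, 2.98 and 2.96 in the 3 mature oligodendrocyte arrays. All mature arrays were dim, and the difference was at least 25.4-fold (log2 difference 7.34 ± 0.73 SE, adjusted p = 6.63e-10). Spc25, a kinetochore component, was higher by at least 17.2-fold, Nusap1 of the spindle by at least 7.47-fold, Cdca8 of the chromosomal passenger complex by at least 7.4-fold and cyclin A2 (Ccna2) by at least 5.18-fold. The exception was Anln, an actin-binding protein of the cleavage furrow that is also present in myelin, at 9.37, 9.35 and 9.58 in the 3 progenitor arrays and at 13.63, 13.71 and 13.29 in the 3 mature oligodendrocyte arrays. It was higher in mature oligodendrocytes by 17.2-fold (log2 difference -4.11 ± 0.33 SE, adjusted p = 6.54e-12). Of the 38 genes, 15 were dim in both stages, Top2a among them.

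Of 34 replication genes, 7 (20.6%) were higher in progenitors and 2 (5.9%) in mature oligodendrocytes, against 13.7% and 14.6% of all genes tested. The median difference was 0.31, and under the other scalings the counts were 6 and 3 with a median of 0 to 0.021. Rrm2, the ribonucleotide reductase subunit made in S phase, was at 11.15, 10.79 and 9.74 in the 3 progenitor arrays and at 4.13, 4.12 and 4.12 in the 3 mature oligodendrocyte arrays. The mature arrays were dim, and the difference was at least 30.2-fold (log2 difference 6.43 ± 0.71 SE, adjusted p = 4.68e-09). The licensing factor Cdt1 was higher by at least 9.21-fold and the helicase subunit Mcm6 by 6.89-fold, while its partners Mcm2 (log2 difference 1.59, 95% interval 0.064 to 3.11, adjusted p = 0.0666) and Mcm4 (log2 difference 1.06, 95% interval 0.092 to 2.02, adjusted p = 0.0539) were over 2-fold higher but missed the adjusted p. Both passed in the fits on 6 or on 20 arrays. Mcm3 was dim in both stages. The genes higher in mature oligodendrocytes were Pola2 (2.76-fold) and Gins4 (2.18-fold). Regulators of cycle entry and exit were divided. Ccnd1, the cyclin that drives entry into the cycle, was at 12.57, 12.57 and 12.55 in the 3 progenitor arrays and at 4.71, 4.73 and 5.36 in the 3 mature oligodendrocyte arrays. Progenitors were higher by at least 121-fold (log2 difference 7.63 ± 0.53 SE, adjusted p = 2.35e-13), and the other D cyclins Ccnd2 and Ccnd3 by 2.28-fold and 4.08-fold. Ccnd2 did not pass under 2 of the 3 other scalings or when any 1 of the 6 arrays was left out, with adjusted p from 0.0735 to 0.0937. Of the inhibitors, Cdkn1c and Cdkn2b were also higher in progenitors, by 5.45-fold and at least 5.66-fold, while Cdkn1a and Cdkn1b were dim in both stages. The pocket proteins went opposite ways: progenitors had more Rbl1 (at least 6.93-fold) and mature oligodendrocytes more of Rbl2, the form of resting cells (3.48-fold). Kinases of differentiated cells, Cdk5 and Cdk18, were higher in mature oligodendrocytes by 4.69-fold and 11.6-fold. In all, 10 of 29 entry and exit genes (34.5%) were higher in progenitors and 6 (20.7%) in mature oligodendrocytes. The shares of all genes tested were 13.7% and 14.6%.

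**Figure D4:**
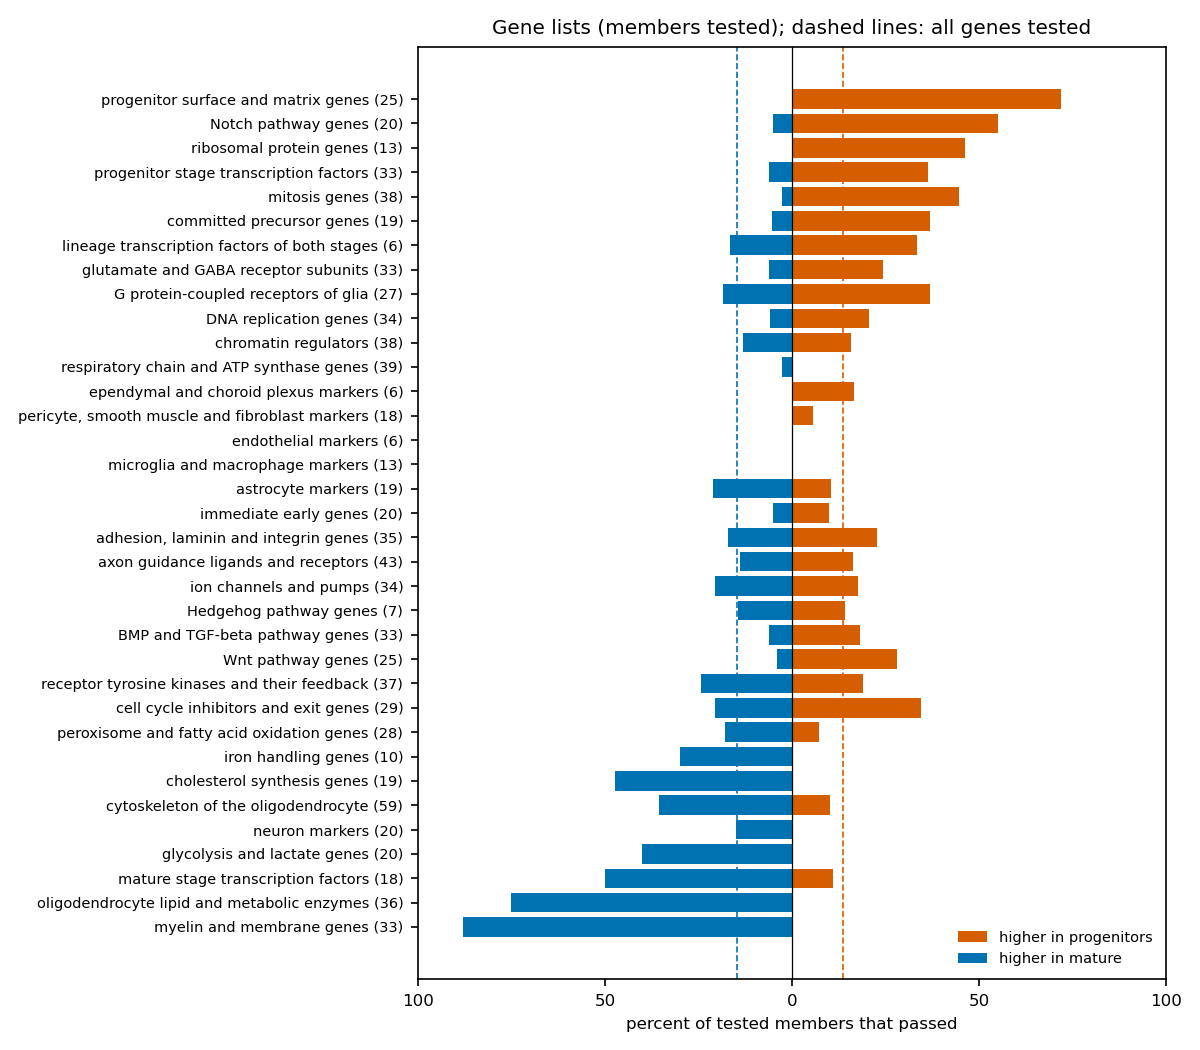
Number of tested genes of each list that were higher in progenitors (to the right) or in mature oligodendrocytes (to the left), as a share of the list; dashed lines mark the shares over all genes tested, 13.7% and 14.6%. Myelin and lipid enzyme genes (29 of 33 and 27 of 36) and progenitor surface genes (18 of 25) stand farthest from those lines.

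In the list of receptor tyrosine kinases and their feedback, 7 of 37 (18.9%) were higher in progenitors and 9 (24.3%) in mature oligodendrocytes, against 13.7% and 14.6% of all genes tested. Among ligands, Pdgfa, which acts on the receptor of the progenitors, was higher in mature oligodendrocytes by 4.53-fold and Fgf1 by 7.34-fold. Pdgfa was at 5.97, 5.98 and 5.97 in the 3 progenitor arrays and at 8.17, 8.24 and 8.05 in the 3 mature oligodendrocyte arrays, without overlap. Among receptors other than Pdgfra, the neurotrophin receptor Ntrk2 was higher in progenitors by 4.37-fold, and Fgfr2 and Tyro3 in mature oligodendrocytes by 5.84-fold and 5.31-fold. Fgfr2 was at 8.40, 8.63 and 8.36 in the 3 progenitor arrays and at 11.04, 10.94 and 11.05 in the 3 mature oligodendrocyte arrays (log2 difference -2.55 ± 0.22 SE, adjusted p = 3.75e-11). Downstream, the adaptor Shc4 was at 11.09, 11.02 and 11.14 in the 3 progenitor arrays and at 6.04, 5.97 and 6.01 in the 3 mature oligodendrocyte arrays, higher in progenitors by 33.8-fold (log2 difference 5.08 ± 0.69 SE, adjusted p = 2.24e-07). The feedback inhibitors Spry1 and Dusp6, the second not under 2 of the 3 other scalings, were higher in progenitors by 9.998-fold and 3.53-fold, and Lrig1 and Errfi1 in mature oligodendrocytes by 3.18-fold and 2.68-fold.

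Notch pathway genes were higher in progenitors in 11 of 20 tested and in mature oligodendrocytes in 1 (median difference 1.12, and under the other scalings 9 and 2 in the same order with a median of 0.62 to 0.93). The target Nrarp, a feedback inhibitor of the pathway, was at 11.49, 11.51 and 11.34 in the 3 progenitor arrays and at 5.95, 5.93 and 5.96 in the 3 mature oligodendrocyte arrays. The difference was 45.3-fold (log2 difference 5.501 ± 0.35 SE, adjusted p = 3.25e-14), and Nrarp was also at 11.91 ± 0.15 in astrocytes. The ligand Dll1 and the receptor Notch1 were higher by 2.72-fold and at least 2.62-fold, and the effector Hey2 by at least 10.98-fold. Adam17, a protease that can cleave the receptor, was higher in mature oligodendrocytes by at least 2.77-fold. Of 25 Wnt genes, 7 (28.0%) were higher in progenitors and 1 (4.0%) in mature oligodendrocytes, against 13.7% and 14.6% of all genes tested. Under the other scalings these counts were 5 to 6 and 5. The ligand Wnt7a was at 9.13, 9.48 and 9.47 in the 3 progenitor arrays and at 3.495, 3.49 and 3.52 in the 3 mature oligodendrocyte arrays, above mature oligodendrocytes by at least 13.1-fold (log2 difference 5.86 ± 0.34 SE, adjusted p = 5.52e-15). Axin2, a target and inhibitor, was higher by at least 2.46-fold. Daam2, an intracellular mediator, was at 3.71, 3.71 and 3.74 in the 3 progenitor arrays and at 8.96, 8.98 and 9.20 in the 3 mature oligodendrocyte arrays, higher in mature oligodendrocytes by at least 10.6-fold (log2 difference -5.33 ± 0.12 SE, adjusted p = 4.48e-25). In the BMP and TGF-beta pathway 6 of 33 (18.2%) were higher in progenitors and 2 (6.1%) in mature oligodendrocytes. Over all genes tested these shares were 13.7% and 14.6%, and under the other scalings the counts were 3 to 4 and 4. Among ligands, progenitors were higher in Bmp4 (fitted log2 difference 7.80, adjusted p = 7.84e-16) and Tgfb2 (fitted log2 difference 4.81, at least 2.5-fold). The Bmp4 value is from before dim means were raised and has no firm size. With dim means raised, Bmp4 was not among the 15 largest differences on the progenitor side. Smad1 and Smad5 were also higher in progenitors (log2 differences 1.77 and 1.25). Mature oligodendrocytes were higher in Acvr1 (log2 difference -1.47) and in the inhibitory Smad7 (3.29-fold). In the Hedgehog list the co-receptor Gas1 (at least 12.6-fold, progenitors) and Hhip, which binds the ligand (at least 3.71-fold, mature oligodendrocytes), were the calls among 7 tested. That was 14.3% in each direction, close to the shares over all genes tested.

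Neurotransmitter receptor genes were mostly not called. Of 33 genes of glutamate and GABA receptors and their partners, 8 (24.2%) were higher in progenitors and 2 (6.1%) in mature oligodendrocytes. Over all genes tested these shares were 13.7% and 14.6%. The median difference was 0.35, and under the other scalings the counts were 8 and 3 with a median of 0. The kainate receptor subunits Grik5, Grik1 and Grik4 were above mature oligodendrocytes by at least 6.02-fold, 4.61-fold and at least 2.39-fold. Grik5 was at 8.22, 8.25 and 8.22 in the 3 progenitor arrays and at 5.42, 5.42 and 5.41 in the 3 mature oligodendrocyte arrays. Of the AMPA receptor genes, none passed: the log2 difference of Gria1 was -0.35 (adjusted p = 0.616) and that of Gria2 was 0.030 (adjusted p = 0.952), Gria3 missed the call at log2 difference 0.35, 95% interval -0.26 to 0.97, adjusted p = 0.325, and Gria4 was dim in both. The synaptic adhesion genes Lrrtm3 and Lrrtm1 were higher in progenitors by 7.5-fold and 3.99-fold. Grm3, a metabotropic glutamate receptor, was at 9.17, 9.51 and 9.74 in the 3 progenitor arrays and at 12.498, 12.40 and 12.46 in the 3 mature oligodendrocyte arrays, higher in mature oligodendrocytes by 7.88-fold (log2 difference -2.98 ± 0.29 SE, adjusted p = 3.95e-10).

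Of 34 genes of ion channels and pumps, 6 (17.6%) were higher in progenitors and 7 (20.6%) in mature oligodendrocytes, near the 13.7% and 14.6% of all genes tested. The two-pore potassium channels went opposite ways: Kcnk2 was higher in progenitors by 7.3-fold and Kcnk13 in mature oligodendrocytes by 15.04-fold. Kcnk13 was at 5.71, 5.87 and 5.86 in the 3 progenitor arrays and at 9.42, 9.55 and 10.20 in the 3 mature oligodendrocyte arrays. The A-type channel Kcnd2 was higher in progenitors by 6.52-fold, and the pacemaker channel Hcn2 and the chloride channel Clcn2 in mature oligodendrocytes by 6.91-fold and at least 3.61-fold. The beta subunits of the sodium pump parted too, Atp1b2 higher in progenitors by 4.61-fold and Atp1b3 in mature oligodendrocytes by 5.41-fold. Of 27 genes of G protein-coupled receptors and related membrane proteins, 10 (37.0%) were higher in progenitors and 5 (18.5%) in mature oligodendrocytes. Over all genes tested these shares were 13.7% and 14.6%. The median difference was 0.35, and under the other scalings the counts were 8 to 9 and 6 to 7 with a median of 0. The prosaposin receptor relatives went opposite ways. Gpr37l1 was at 11.66, 11.95 and 13.17 in the 3 progenitor arrays and at 8.26, 8.25 and 8.83 in the 3 mature oligodendrocyte arrays, higher in progenitors by 14.04-fold, and Gpr37 was at 10.60, 11.01 and 11.62 in the 3 progenitor arrays and at 14.60, 14.503 and 14.81 in the 3 mature oligodendrocyte arrays, higher in mature oligodendrocytes by 11.8-fold. The thrombin receptor F2r was above mature oligodendrocytes by at least 52.6-fold. Among receptors for sphingosine 1-phosphate, progenitors were higher in S1pr2 (at least 3.83-fold) and mature oligodendrocytes in S1pr5 (7.92-fold), and S1pr1 and S1pr3 did not pass.

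In axon guidance, 7 of 43 genes (16.3%) were higher in progenitors and 6 (13.95%) in mature oligodendrocytes, close to the 13.7% and 14.6% of all genes tested. Under the other scalings the mature side had the larger count, 11 to 13 against 7. Dpysl3, which couples semaphorin signals to the cytoskeleton, was at 9.93, 9.51 and 10.01 in the 3 progenitor arrays and at 4.58, 4.47 and 5.65 in the 3 mature oligodendrocyte arrays. Progenitors were higher by at least 18.02-fold (log2 difference 4.92 ± 0.38 SE, adjusted p = 2.67e-12). The Slit receptor Robo1 was higher by 8.33-fold and Sema5a by at least 4.83-fold. The netrin receptor Unc5b was at 6.13, 6.15 and 6.13 in the 3 progenitor arrays and at 10.35, 10.36 and 10.75 in the 3 mature oligodendrocyte arrays, higher in mature oligodendrocytes by 20.4-fold (log2 difference -4.35 ± 0.29 SE, adjusted p = 7.73e-14). The plexins Plxnb2 and Plxnb3 went opposite ways, by at least 5.09-fold in progenitors and 3.34-fold in mature oligodendrocytes, and Rtn4, the myelin inhibitor Nogo, was higher in the latter by 3.48-fold. In adhesion, 8 of 35 (22.9%) were higher in progenitors and 6 (17.1%) in mature oligodendrocytes, against 13.7% and 14.6% of all genes tested. These counts became 3 to 4 and 9 to 11 under the other scalings. The contactins parted, Cntn1 higher in progenitors by 4.39-fold and Cntn2 in mature oligodendrocytes by at least 5.74-fold. Itgb4, an integrin subunit, and Lama2, a laminin chain, were higher in mature oligodendrocytes by at least 16.5-fold and at least 12.8-fold.

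Cytoskeleton genes were higher in mature oligodendrocytes in 21 of 59 tested and in progenitors in 6 (median difference -0.64, and under the other scalings 32 to 35 and 2 in the same order with a median of -1.16 to -1.44). Tppp3, a microtubule-binding protein, was at 8.09, 7.58 and 8.63 in the 3 progenitor arrays and at 13.37, 13.39 and 13.52 in the 3 mature oligodendrocyte arrays. The groups did not overlap, and the difference was 40.1-fold (log2 difference -5.33 ± 0.54 SE, adjusted p = 1.12e-09). Its relative Tppp, which nucleates microtubules in oligodendrocyte processes, was higher by 6.77-fold, and tubulin Tubb4a by 6.09-fold. Bin1, a membrane-bending protein, was higher by 18.8-fold, at 8.89, 8.66 and 9.06 in the 3 progenitor arrays and at 13.19, 13.06 and 13.05 in the 3 mature oligodendrocyte arrays. Cdc42ep2, an effector of the GTPase Cdc42, was higher by 18.6-fold and the septin Septin4 by 5.03-fold. On the progenitor side Marcks, which binds actin at the membrane, was at 14.28, 14.33 and 14.24 in the 3 progenitor arrays and at 9.45, 9.45 and 9.53 in the 3 mature oligodendrocyte arrays. Progenitors were higher by 28.01-fold (log2 difference 4.81 ± 0.20 SE, adjusted p = 1.19e-18), and the intermediate filament gene Vim by at least 5.68-fold.

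The 15 largest differences in each direction, ranked with dim means raised to the limit, held several genes outside these lists. On the progenitor side Pxdc1, a little-studied gene, was at 13.25, 12.97 and 12.76 in the 3 progenitor arrays and at 3.005, 2.998 and 3.27 in the 3 mature oligodendrocyte arrays, with all mature arrays dim and a difference of at least 163-fold (log2 difference 9.90 ± 0.41 SE, adjusted p = 1.59e-18). Cav1, the coat protein of caveolae, was at 12.60, 12.73 and 12.83 in the 3 progenitor arrays and at 4.36, 4.35 and 4.51 in the 3 mature oligodendrocyte arrays, a pattern of the same kind (at least 135-fold). Cdo1, which oxidises cysteine, was higher by at least 66.5-fold, the actin-associated Afap1l2 by at least 59.2-fold, the liprin Ppfibp1 by 52.6-fold, and the membrane proteins Tmem100 and Tmem176b by at least 59.97-fold and 50.7-fold. Tmem176b was at 12.36 ± 0.33 in astrocytes and Tmem100 at 11.95 ± 0.34, both at or above the progenitors. On the mature side Serpinb1a, an inhibitor of proteases of neutrophils, was at 6.26, 6.29 and 6.26 in the 3 progenitor arrays and at 11.64, 11.80 and 11.37 in the 3 mature oligodendrocyte arrays. It was higher by 40.3-fold (log2 difference -5.33 ± 0.13 SE, adjusted p = 1.06e-24). Xaf1, a gene known to respond to interferon, was at 4.43, 4.45 and 3.84 in the 3 progenitor arrays and at 10.72, 10.72 and 10.75 in the 3 mature oligodendrocyte arrays, higher by at least 33.97-fold. Rftn1, a lipid raft protein, was higher by at least 32.1-fold, the matrix protein Adamtsl4 by at least 30.5-fold, the alanine aminotransferase Gpt by 29.01-fold and Insc, which orients the mitotic spindle, by 24.9-fold. Selenop, a selenium carrier, was higher by 22.2-fold, but at 14.46 ± 0.0056 in astrocytes it was above both stages. The signalling genes Rasgrp3 and Skap2 were higher by 25.3-fold and 20.98-fold, Plekhh1 by 21.6-fold and the glutathione transferase Gstm7 by 20.9-fold.

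Bound RNA of cortical Olig2 cells, a line that covers the lineage, was not part of the contrast. Its mean was above that of the lower stage for 1075 of the 1341 genes higher in progenitors (80.2%) and 1104 of the 1427 higher in mature oligodendrocytes (77.4%). It lay between the stages for 808 and 865 genes, 60.3% and 60.6%. The genes were chosen for a difference between the stages, which raises these shares by itself. On the progenitor side the median level was 8.51 in Olig2 cells, 8.42 in astrocytes and 8.02 in neurons, against 6.89 in mature oligodendrocytes. On the mature side it was 8.34, 7.58 and 7.59 in the same order, against 7.26 in progenitors. Gpr17 was at 13.39 ± 0.12 (SD, n = 3), Ccnd1 at 11.16 ± 0.66, Mobp at 11.32 ± 0.037 and Mog at 13.76 ± 0.038 in the Olig2 arrays. Genes of both stages were thus well above the dim limit there. Rasgrp3 stood apart from its neighbours, at 6.15 ± 0.13 in the Olig2 arrays and 11.39, 11.43 and 10.82 in the mature arrays. Many genes that differed were not particular to the lineage. With progenitors, mature oligodendrocytes, astrocytes and neurons set side by side, progenitors had the highest mean for 733 of the 1341 genes higher in progenitors (54.7%), and mature oligodendrocytes for 971 of the 1427 on their side (68.04%). Over all genes tested these shares were 22.95% and 20.9%; the choice of genes by this contrast raises the shares by itself. Astrocytes were at or above the higher stage for 28.7% of genes on the progenitor side and 18.9% on the mature side.

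**Figure D5:**
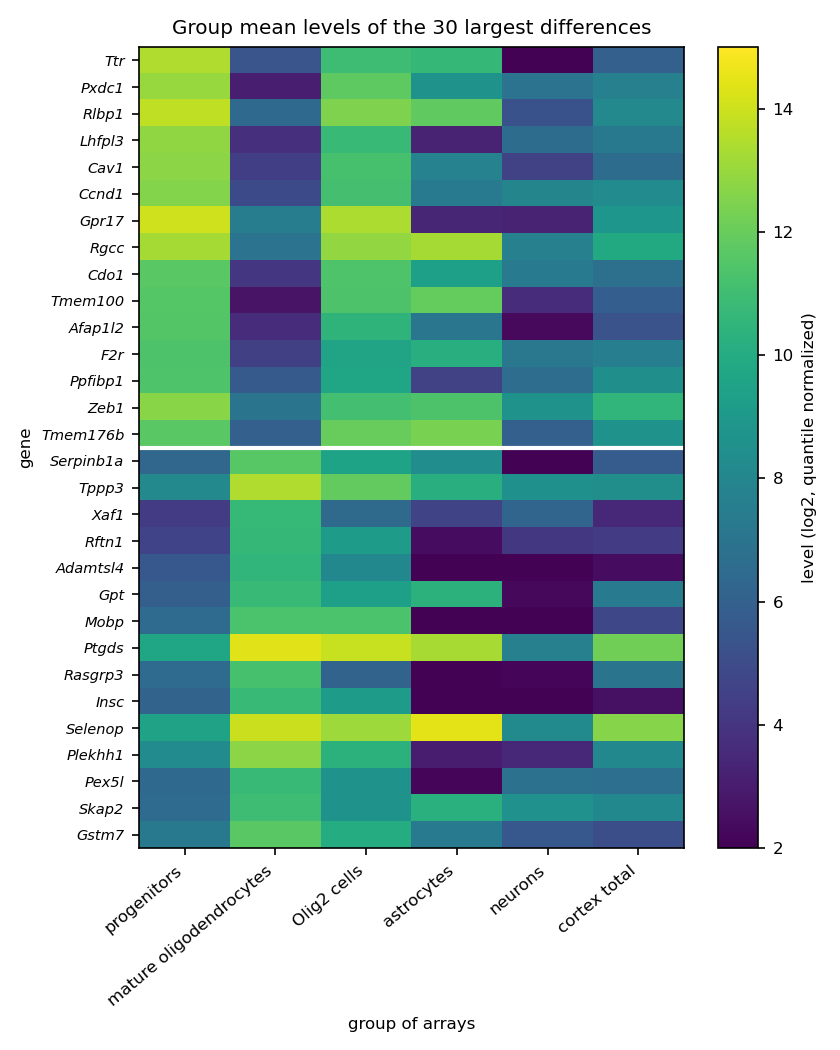
Mean log2 level of the genes with the largest differences (dim means raised to the limit) in progenitors, mature oligodendrocytes, cortical Olig2 cells, astrocytes, neurons and cortex total RNA. Cav1 and Pxdc1 are high in progenitors and Olig2 cells, while Selenop is higher in astrocytes (14.46 ± 0.0056) than in the 3 lineage groups.

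Calls in the housekeeping lists depended on the scaling. Of 68 ribosomal protein entries 14 were measured and 13 tested, so the list stands for a small part of these genes. Of the 13, 6 (46.2%) were higher in progenitors and 0 in mature oligodendrocytes, against 13.7% and 14.6% of all genes tested. Rpl22 was 1 of them (2.71-fold, not called under the other scalings). Under those scalings 0 to 1 were higher in progenitors (median difference 0.95, and 0.0055 to 0.27 there). Of 39 genes of the respiratory chain and ATP synthase, 1 (2.6%) was higher in mature oligodendrocytes, Uqcrc1 of complex III (2.44-fold), and 0 in progenitors. Under the other scalings 6 to 16 were higher in mature oligodendrocytes, and the median of the list, 0.088, changed sign (-0.53 to -0.79). Among immediate early genes, which respond to activity and to handling of tissue, 2 of 20 (10.0%) were higher in progenitors and 1 (5.0%) in mature oligodendrocytes. Ier3 (at least 5.18-fold) and Nr4a1 (2.26-fold, not called under the other scalings) were higher in progenitors, and Arc (4.03-fold) in mature oligodendrocytes. Arc lost its call when any 1 of the 6 arrays was left out. Fos (log2 difference 0.22, 95% interval -1.35 to 1.78, adjusted p = 0.837) did not pass, and Junb was dim in both stages.

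Markers of other cell types were measured beside the lineage genes. Of 20 neuron markers 4 were dim in progenitors and 1 in mature oligodendrocytes, and their summed linear signal was 35198 to 38948 in the progenitor arrays and 33147 to 34874 in the mature oligodendrocyte arrays. A linear sum is carried mostly by the markers with the highest signal, so it does not give the direction of most markers. The median level of the list had the opposite order, 8.46 in progenitors and 9.32 in mature oligodendrocytes, and 0 markers were called higher in progenitors. 3 of 20 were higher in mature oligodendrocytes, Sst (at least 4.45-fold), Tubb3 (3.28-fold) and Camk2a (at least 2.13-fold). That share was close to the 14.6% of all genes tested, while the 0 in progenitors stood beside 13.7%. Under the other scalings 9 to 10 were higher in mature oligodendrocytes (median difference -0.76 in the main scaling, and -1.15 to -1.495 there). Snap25, the gene of the neuron line, was at 14.67 ± 0.075 in progenitors and 14.04 ± 0.10 in mature oligodendrocytes, against 15.46 ± 0.085 in neurons. Its level was far above the list medians and in the order of the sums, but it did not pass (log2 difference 0.64, limma adjusted p = 0.101). Of 19 astrocyte markers 9 and 7 were dim, with a summed signal of 11945 to 15629 in the progenitor arrays and 14936 to 22573 in the mature oligodendrocyte arrays. S100b, made by astrocytes and by the oligodendrocyte lineage, was at 10.75, 10.63 and 10.20 in the 3 progenitor arrays and at 6.44, 6.74 and 6.34 in the 3 mature oligodendrocyte arrays, higher in progenitors by 16.2-fold. Slc4a4 was the other astrocyte marker higher in progenitors (log2 difference 1.02, limma adjusted p = 0.000194). Apoe (3.39-fold), Mlc1 (at least 4.34-fold), Acsbg1 (at least 3.06-fold) and Aldh1l1 (2.5-fold) were higher in mature oligodendrocytes. In all, 2 of 19 (10.5%) were higher in progenitors and 4 (21.1%) in mature oligodendrocytes, against 13.7% and 14.6% of all genes tested. Under the other scalings these counts were 1 and 5 to 8. Aldh1l1, at 5.59, 6.23 and 7.35 in the 3 progenitor arrays and at 7.56, 6.99 and 8.60 in the 3 mature oligodendrocyte arrays, overlapped between the groups and lost its call without progenitor replicate 1 or mature replicate 3. The part of neuronal and astrocytic RNA in the differences was not tested.

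Markers of microglia, endothelium and pericytes were almost all dim. In progenitors and mature oligodendrocytes 16 and 16 of 17 microglial markers were dim, as were 16 and 14 of 16 endothelial markers and 21 and 22 of 23 pericyte and fibroblast markers. The microglial marker above the limit was Ctss, a lysosomal protease, at 7.67 ± 0.32 in progenitors and 9.20 ± 0.53 in mature oligodendrocytes. It did not pass (log2 difference -1.53, 95% interval -2.98 to -0.079, adjusted p = 0.0636), but did in 8 of the 21 alternatives, the 3 other scalings among them. The summed signal of the 13 microglial markers tested was 228 to 319 in the progenitor arrays and 535 to 1017 in the mature oligodendrocyte arrays. That of the 6 endothelial markers tested was 73 to 192 in the progenitor arrays and 188 to 355 in the mature oligodendrocyte arrays. The pericyte marker that passed was Cspg4, which progenitors share. Cav1, high in progenitors, is also a gene of endothelium, and all 16 endothelial markers were dim in progenitors. Whether endothelial RNA had a part in the Cav1 signal was not tested. Ttr, the transthyretin of choroid plexus, was at 11.91, 14.70 and 13.76 in the 3 progenitor arrays and at 6.46, 6.35 and 3.52 in the 3 mature oligodendrocyte arrays. It differed by at least 225-fold (log2 difference 8.01 ± 2.25 SE, adjusted p = 0.00294), with a wide spread on both sides, and the other 12 of 13 markers of ependyma and choroid plexus were dim in progenitors. Whether choroid plexus RNA had a part in the Ttr signal was not tested.

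The call is a threshold on a continuous range. Just inside it lay Arhgef11, Ctu2, Pianp, Sap30l and Zfp667 and just outside Ankle2, Efcab7, Mpdu1, Parn and Tbcd. After dim means were raised, all were within rounding of a 2-fold difference. Before raising, the fitted log2 difference of Pianp was 2.53. Ctu2 was at 7.26 ± 0.089 in progenitors and 8.26 ± 0.085 in mature oligodendrocytes, and Parn at 7.08 ± 0.26 in progenitors and 8.07 ± 0.12 in mature oligodendrocytes.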

How the data were processed

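Bound RNA of 6 arrays (3 per stage) was compared within a series of 38 one-colour Affymetrix arrays. The authors deposited log2 signals made with GCRMA, per the submitters' processing notes; the version is not given in the sources used here. The lowest deposited value was shared within each group and differed between groups, which would follow if GCRMA was run group by group; the sources used here do not state how it was run. Such a run can narrow replicate spread and shift groups against each other. The number of arrays limits the precision. Of 16395 probe sets, 64 were controls, 687 had no gene, and 15644 had 1 gene in the platform annotation, none with several. The values were quantile normalized over all 38 arrays. Genes above log2 50 on at least 3 arrays were tested (9799, with 5845 removed) with limma 3.58.1 in R 4.3.3: 1 model of the 12 groups (26 residual degrees of freedom), eBayes and Benjamini-Hochberg adjustment over the genes tested. Intervals are 95%. A gene passed with adjusted p under 0.05 and at least 2-fold difference, after means under log2 50 were raised to it. The fit was tested on simulated data. Stage names come from the labels. Alternatives were other scalings, fits, filters and thresholds, and leaving out each array.

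The members and the 35 gene lists (1265 entries, 1075 measured, 893 tested) were chosen with earlier results of these data known, and no list was tested as a set. Named genes were the genes of the reporter lines and markers, the 15 largest differences in each direction without overlap, up to 4 passing members per list and direction (or 2 where none passed), list members whose role is described, and 5 genes on either side of the threshold. Promoters are RefSeq windows on GRCm38.p6, matched by gene identifier for the counts and by symbol for the printed sequences.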

Additional observations from a re-analysis of the deposited data

How the results depend on the processing

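No call changed direction in the 21 alternatives. Among the scalings, with the deposited values 2388 genes were higher in mature oligodendrocytes, with median-centred arrays 824 were higher in progenitors and 3259 in mature oligodendrocytes, and with spike-in scaling 873 and 2652. Of the 2768 calls, 2349, 2251 and 2300 remained. With no minimum fold, 5064 genes passed, 2443 higher in progenitors and 2621 in mature oligodendrocytes, the largest total of the 21 alternatives. With dim means not raised, 3792 passed. Leaving out 1 array gave 2648 to 2836 genes, 1282 to 1394 higher in progenitors and 1366 to 1442 in mature oligodendrocytes. Of the genes named in the report, apart from those at the threshold, Arc and Ccnd2 lost their call when any 1 array was left out, Aldh1l1 without progenitor replicate 1 or mature replicate 3, and Camk2a without mature replicate 3. Same-numbered arrays were not treated as pairs in the main fit. Their deviations from the stage means correlated at 0.084, 0.0996 and 0.168. Progenitor 1 correlated best with mature 2 (0.262), while progenitors 2 and 3 correlated best with the mature array of their own number. With 3 arrays per stage these values do not settle whether the arrays were paired. The fit on the 6 arrays passed 2792 genes, and 2780 with the replicate number as a block. A dim limit of log2 100 left 2199 calls and one of log2 25 gave 3234; signal over background is what limits the genes near that level.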
